A study of Mus musculus with 29 samples.

Results

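Mouse CD4+ T cells activated in medium with 10 mM lactic acid and no TGF-beta were compared at 72 h and at 24 h after the start of stimulation. The 6 libraries titled as such, 3 at each time, were taken from the 29 libraries of the series by the titles alone. The cells were CD4+ T cells from the spleen of C57BL/6-Foxp3tm1Flv/J mice, a strain in which a red fluorescent protein reports expression of Foxp3, the transcription factor of regulatory T cells. The 6 libraries are of the sorted CD4+ cells without that fluorescence, labelled Tcon (conventional T cells).

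All groups used here were stimulated with anti-CD3 (1.25 µg/ml) and anti-CD28 (2.5 µg/ml) in RPMI with 0.5 mM glucose and 50 IU/ml IL-2. The other media of the series held neither lactic acid nor TGF-beta, TGF-beta alone (3 ng/ml), or both. At each time replicate 1 came from a male and replicates 2 and 3 from females. Replicate 1 therefore came from another animal than the other replicates of its time. The labels give no ages, do not say whether replicates 2 and 3 were separate cultures or animals, and do not say whether both times belong to 1 experiment. The p-values below come from 1 model of all 29 libraries in 10 groups. They rest on the spread within all these groups, not within the compared samples alone. Between replicates 2 and 3 that spread may be technical, and time and experiment cannot be told apart.

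Stimulation through the T cell receptor and CD28 takes a naive T cell out of quiescence: early response genes come first, then growth, cytokine production and cell division. Dividing T cells turn glucose into lactate even where oxygen is at hand, and lactate leaves or enters the cell together with a proton through monocarboxylate carriers. Transcription factors that answer to scarce amino acids (ATF4), to unfolded protein in the secretory pathway (ATF6 and XBP1), to low oxygen (HIF-1) and to interferon each bind a short recognition sequence.

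The promoters of 10 genes of 5 such groups are shown first, because most members of each group moved together between both times. Each sequence is that of RefSeq (GRCm38.p6), 5′ to 3′ along the gene, from 250 bases before to 50 after the annotated start, and capitals mark each match to the motif on either strand. Taken were the 2 members of each group with the largest change in level, among those with a match that were called and averaged 5 CPM or more over the 6 libraries. Promoters on a single chromosome were left out of this choice, but not of the shares below. A match describes the letters in this window and is not evidence of binding.

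TGATGNAA, the core of the site bound by ATF4 with its C/EBP partners, was found in 8 of the 30 promoters listed for 26 of 30 genes of the ATF4 amino acid response (26.7%), against 3.97% of all 32851 promoters of this length. Nupr1 lies at chr7:126625421-126625720 (minus strand) and Vldlr at chr19:27216770-27217069 (plus strand).
Nupr1: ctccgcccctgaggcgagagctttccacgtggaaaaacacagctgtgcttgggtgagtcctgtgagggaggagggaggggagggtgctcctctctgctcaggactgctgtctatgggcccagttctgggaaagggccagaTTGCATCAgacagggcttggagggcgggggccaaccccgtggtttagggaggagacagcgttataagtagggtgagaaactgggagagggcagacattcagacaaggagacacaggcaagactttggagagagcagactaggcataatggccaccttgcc
Vldlr: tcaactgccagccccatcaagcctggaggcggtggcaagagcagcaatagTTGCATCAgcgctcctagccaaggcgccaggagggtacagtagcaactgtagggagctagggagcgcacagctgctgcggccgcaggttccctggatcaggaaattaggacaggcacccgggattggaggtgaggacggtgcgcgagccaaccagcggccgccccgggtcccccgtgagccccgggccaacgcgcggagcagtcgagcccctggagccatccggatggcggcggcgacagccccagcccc

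The endoplasmic reticulum stress element, CCAAT and CCACG with 9 bases of any kind between them, was found in 8 of the 20 promoters listed for 20 of 23 unfolded protein response genes (40%), against 0.119% of all promoters. Creld2 lies at chr15:88819396-88819695 (plus strand) and Hspa5 at chr2:34771840-34772139 (plus strand).
Creld2: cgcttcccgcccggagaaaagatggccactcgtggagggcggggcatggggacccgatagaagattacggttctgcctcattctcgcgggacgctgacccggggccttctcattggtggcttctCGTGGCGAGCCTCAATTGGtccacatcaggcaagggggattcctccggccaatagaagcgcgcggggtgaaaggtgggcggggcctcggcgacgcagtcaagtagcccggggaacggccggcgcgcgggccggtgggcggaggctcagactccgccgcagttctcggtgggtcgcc
Hspa5: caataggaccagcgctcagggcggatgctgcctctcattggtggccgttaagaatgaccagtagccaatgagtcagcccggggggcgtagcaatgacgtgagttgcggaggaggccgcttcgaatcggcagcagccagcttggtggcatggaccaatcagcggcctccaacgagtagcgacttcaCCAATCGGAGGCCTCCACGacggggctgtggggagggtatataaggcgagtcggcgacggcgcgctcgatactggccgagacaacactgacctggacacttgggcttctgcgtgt

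ACGTG, the core of the hypoxia response element, was found in 12 of the 20 promoters listed for 14 of 16 hypoxia response genes (60%), against 19.6% of all promoters. The promoter of P4ha2 lies at chr11:54100674-54100973 (plus strand) and that of Egln3 at chr12:54203825-54204124 (minus strand).
P4ha2: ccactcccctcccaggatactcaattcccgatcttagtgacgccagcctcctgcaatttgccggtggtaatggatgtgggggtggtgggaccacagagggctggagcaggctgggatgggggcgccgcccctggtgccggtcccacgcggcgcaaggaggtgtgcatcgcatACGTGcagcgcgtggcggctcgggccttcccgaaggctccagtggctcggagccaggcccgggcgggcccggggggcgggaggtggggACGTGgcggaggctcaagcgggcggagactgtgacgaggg
Egln3: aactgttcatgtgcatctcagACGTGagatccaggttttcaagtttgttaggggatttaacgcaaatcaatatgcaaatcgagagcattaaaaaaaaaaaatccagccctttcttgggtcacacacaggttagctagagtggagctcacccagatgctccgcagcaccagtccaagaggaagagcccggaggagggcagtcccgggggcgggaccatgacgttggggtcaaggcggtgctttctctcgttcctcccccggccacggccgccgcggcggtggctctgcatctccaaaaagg

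TTTGAA, the core of the cell cycle homology region found in genes of late cell cycle, was present in 23 of the 31 promoters listed for 28 of 34 G2 and M phase genes (74.2%), against 17.9% of all promoters. Those of Ccnb2 at chr9:70421505-70421804 (minus strand) and Ube2c at chr2:164769679-164769978 (plus strand) follow.
Ccnb2: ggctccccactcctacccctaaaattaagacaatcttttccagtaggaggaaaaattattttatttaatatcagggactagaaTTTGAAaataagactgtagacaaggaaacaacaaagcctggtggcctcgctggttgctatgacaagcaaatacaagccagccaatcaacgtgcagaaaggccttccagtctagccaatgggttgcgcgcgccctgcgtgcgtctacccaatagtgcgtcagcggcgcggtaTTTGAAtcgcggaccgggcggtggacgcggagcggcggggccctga
Ube2c: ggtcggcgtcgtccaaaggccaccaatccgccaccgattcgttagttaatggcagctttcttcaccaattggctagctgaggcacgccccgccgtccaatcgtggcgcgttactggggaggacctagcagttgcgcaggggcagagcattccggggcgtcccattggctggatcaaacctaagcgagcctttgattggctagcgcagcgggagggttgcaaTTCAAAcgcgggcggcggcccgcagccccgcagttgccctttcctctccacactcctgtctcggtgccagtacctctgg

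The core of the interferon-stimulated response element, GAAA and GAAA with 2 bases of any kind between them, was found in 18 of the 35 promoters listed for 29 of 40 interferon response genes (51.4%), against 3.44% of all promoters. Ifit1 lies at chr19:34640639-34640938 (plus strand) and Gbp2 at chr3:142620413-142620712 (plus strand).
Ifit1: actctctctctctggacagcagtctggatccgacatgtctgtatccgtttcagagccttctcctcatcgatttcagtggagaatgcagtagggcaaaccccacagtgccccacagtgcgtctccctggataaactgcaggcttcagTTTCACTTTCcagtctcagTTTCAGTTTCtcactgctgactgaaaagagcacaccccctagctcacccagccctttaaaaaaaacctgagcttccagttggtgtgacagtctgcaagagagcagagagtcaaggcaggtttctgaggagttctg
Gbp2: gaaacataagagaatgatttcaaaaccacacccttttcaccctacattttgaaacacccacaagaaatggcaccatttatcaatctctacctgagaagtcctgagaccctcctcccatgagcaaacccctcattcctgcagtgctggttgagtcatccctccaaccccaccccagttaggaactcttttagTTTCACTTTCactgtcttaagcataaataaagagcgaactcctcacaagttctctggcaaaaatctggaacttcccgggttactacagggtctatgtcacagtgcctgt

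The 6 libraries held 10842352 to 14315313 gene counts, within the 9754511 to 14315313 of all 29, and levels are given as CPM, gene counts scaled to a common library size. The share of reads set aside for low mapping quality was 13.9% to 14.7% at 24 h and 16.4% to 16.98% at 72 h, and the part of this difference in the results was not tested. Of the variance over the 6 libraries, 78.7% lay on a first component that separated the times and 10.2% on a second, along which replicate 1 of 72 h (score 43.4) stood apart from replicates 2 and 3 (scores -32.2 and -17.8). Cd4 was at 589.8, 557 and 555 CPM at 24 h and 600.2, 586 and 596 CPM at 72 h. The summed level of 9 CD4 T cell markers was 3408 to 3460 CPM at 24 h and 2472 to 2963 CPM at 72 h, so markers of the label were present at both times. Of the 9, 4 were called lower, 2 of them at least 2-fold, and 0 higher. Trac was at 516, 520 and 537 CPM at 24 h and 275, 227 and 247 CPM at 72 h. Cd28 was at 598, 586 and 523 CPM at 24 h and 397, 144 and 170 CPM at 72 h. Cd8a and the B cell genes Cd79a and Ms4a1 stayed below 1 CPM in every library, and the summed level of 16 myeloid markers was at most 6.62 CPM, with 6 of them at 0 throughout. The 12 B cell markers summed to 232 to 253 CPM at 24 h and 173 to 257 CPM at 72 h, nearly all of it from Ighm and Cd74. These moved in opposite directions. Ighm was at 227, 234 and 215 CPM at 24 h and 101.99, 129.7 and 115 CPM at 72 h. Cd74 was at 11.2, 15.5 and 13.5 CPM at 24 h and 149, 36.95 and 52.9 CPM at 72 h. Of the 6 B cell markers tested, 3 were called higher and 1 lower, with a median log2 fold change of 2.13. The 11 markers of CD8 T and NK cells summed to 129 to 151 CPM and then 22.1 to 32.3 CPM. Eomes made up most of this sum at 24 h and in replicate 2 of 72 h, and 6.89 and 4.99 CPM of it in replicates 1 and 3 of 72 h. Cd8b1 was at 12.5, 14.1 and 9.29 CPM at 24 h and 12.4, 5.93 and 6.78 CPM at 72 h. Klrk1 was at 0.920, 0.410 and 0.729 CPM at 24 h and 8.34, 3.69 and 5.56 CPM at 72 h. Of the 7 of these markers tested, 2 were called higher, each at least 2-fold, and 1 lower, with a median log2 fold change of -0.52. The 10 erythroid and platelet markers summed to at most 5.28 CPM and the 6 gamma delta T cell markers to at most 7.74 CPM.

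Among 14375 genes tested by edgeR's quasi-likelihood test, 6701 (46.6%) passed a Benjamini-Hochberg adjusted p of 0.05 and are called changed, 3810 (26.5%) higher and 2891 (20.1%) lower at 72 h. A fold of at least 2 was reached by 2859 of them (19.9%), of which 2037 (14.2%) were higher and 822 (5.72%) lower. The 3 libraries of each time did not overlap for 8258 genes (57.4%). The median log2 fold change over all tested genes was 0.02. These shares and this median are the background against which the lists that follow are read. The excess of higher calls depended on the scaling, with 3670 higher and 3145 lower with RLE factors and 3671 and 3176 in DESeq2. With no scaling factor 3491 were higher and 3486 lower, and at least 2-fold 1942 and 924. Without replicate 1 of 72 h 5928 genes were called, 2573 of them at least 2-fold. With only the compared groups in the fit, 5909 of 12479 genes tested were called. These are bulk measurements, in which fewer cells of a type and less RNA per cell cannot be told apart.

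**Figure D1:**
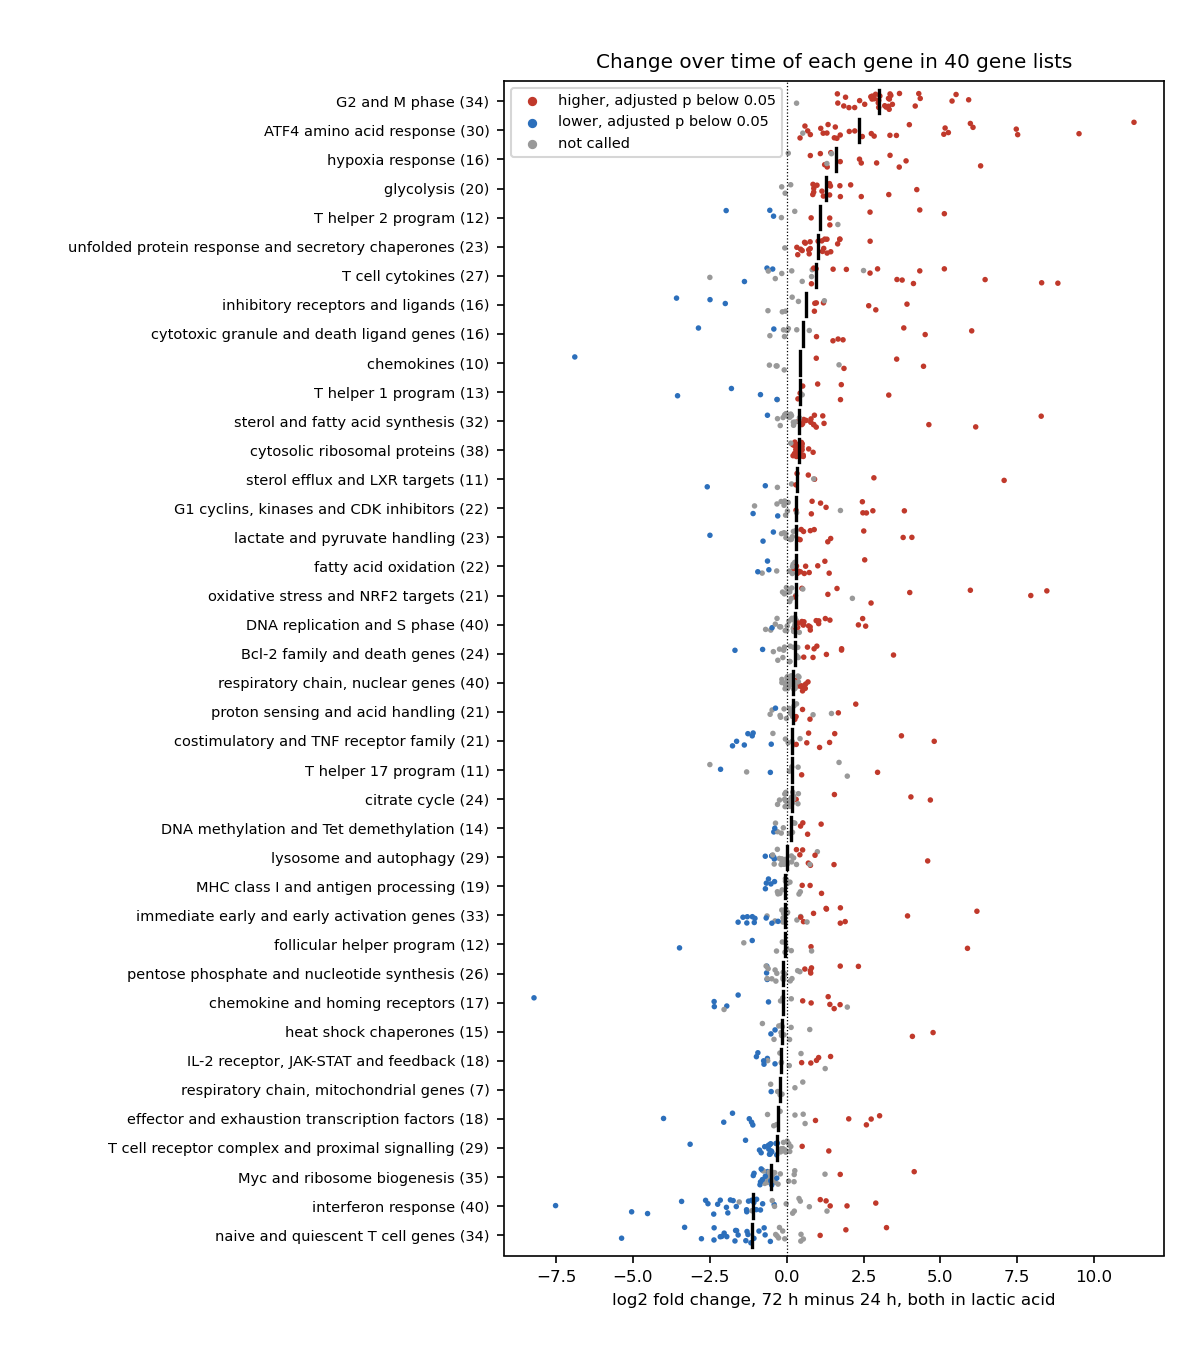
Log2 fold change (72 h minus 24 h, both in lactic acid) of each tested gene of 40 gene lists, with the number of genes in brackets, a black bar at the list's median and a dotted line at the median of all genes. G2 and M phase (median 3.01) and ATF4 genes (2.34) lie farthest right, and naive T cell genes (-1.11) and interferon response genes (-1.10) farthest left. Values of genes with few counts are fitted and depend on the prior count.

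Genes of cell division had the largest median rise of the 40 lists. Of 34 G2 and M phase genes, 33 rose and 1 (Bub3) was not called, with a median log2 fold change of 3.01, and 33 also rose without replicate 1 of 72 h. Ccnb2, a cyclin that drives entry into mitosis, was at 0.836, 0.903 and 1.55 CPM at 24 h and 47.4, 84.5 and 66.8 CPM at 72 h (log2 fold change 5.92, SE 0.47, adjusted p = 6.53e-10). Ube2c, the ubiquitin-conjugating enzyme of the anaphase-promoting complex, was at 2.93, 2.63 and 1.91 CPM at 24 h and 84.9, 141 and 117 CPM at 72 h (log2 fold change 5.51, SE 0.45, adjusted p = 1.06e-09). All 3 libraries of 72 h stood far above all 3 of 24 h for both genes. Mki67, whose protein marks cycling cells, was at 42.1, 31.5 and 20.1 CPM at 24 h and 767, 589.6 and 553 CPM at 72 h (log2 fold change 4.34, SE 0.27, adjusted p = 1.48e-11). Ccnb1 was at 4.79 ± 1.58 CPM at 24 h and 87.5 ± 23.9 CPM at 72 h (SD, n = 3, log2 fold change 4.18, SE 0.42, adjusted p = 2.79e-08). Foxm1, the transcription factor that drives many of these genes, rose from 13.1 ± 3.07 CPM at 24 h to 105 ± 10.2 CPM at 72 h (SD, n = 3).

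DNA replication genes had a smaller median change. Of 40, 18 rose and 1 fell, with a median of 0.28 (14 and 0 without replicate 1 of 72 h, and up to 5 fell under the other alternatives). Rrm2, a subunit of ribonucleotide reductase, was at 106, 83.7 and 50.7 CPM at 24 h and 506, 473 and 448 CPM at 72 h (log2 fold change 2.57, SE 0.29, adjusted p = 1.83e-07). Tk1, thymidine kinase, was at 20.3 ± 3.79 CPM at 24 h and 113 ± 15.9 CPM at 72 h (SD, n = 3, log2 fold change 2.47, SE 0.22, adjusted p = 3.13e-09). Both were higher in all 3 libraries of 72 h. The helicase subunit Mcm5 was at 747, 691 and 583 CPM at 24 h and 531, 645 and 587 CPM at 72 h, with overlapping groups (log2 fold change -0.20, SE 0.16, adjusted p = 0.329).

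Among 22 of 24 G1 cyclins, kinases and inhibitors that passed the filter on low counts, 10 rose and 2 fell, with a median of 0.31, and 4 fell with RLE factors, no scaling or DESeq2. Cdkn1a, which encodes the CDK inhibitor p21, was at 27.8, 23.7 and 26.3 CPM at 24 h and 581, 230.5 and 295 CPM at 72 h (log2 fold change 3.83, SE 0.39, adjusted p = 2.80e-08). Its 72 h libraries were all above those of 24 h and differed among themselves, replicate 1 being the highest. Ccne2, a cyclin of the passage into S phase, was at 14.2 ± 5.68 CPM at 24 h and 99.7 ± 48.9 CPM at 72 h (SD, n = 3, log2 fold change 2.80, SE 0.36, adjusted p = 1.01e-06). The D-type cyclin Ccnd2 fell, from 2444, 2389 and 2328 CPM at 24 h to 1092, 1159 and 1105 CPM at 72 h (log2 fold change -1.09, SE 0.08, adjusted p = 2.57e-10).

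Part of the growth program of early activation fell. Myc, the transcription factor that sets growth and ribosome production in activated T cells, was at 876, 838 and 845 CPM at 24 h and 284, 504 and 417 CPM at 72 h (log2 fold change -1.09, SE 0.27, adjusted p = 0.00192). Every 72 h library was below every 24 h library. Of 35 genes of Myc and ribosome biogenesis, 13 fell and 2 rose, with a median of -0.52, against 20.1% of all genes called lower. The number that fell ranged from 6, without replicate 1 of 72 h, to 23, with no filter on low counts or with the replicate number as a block. The 6 are near the share of all genes in that fit, where 2664 of 14348 were called lower. The 2 that rose, Mxd3 (log2 fold change 4.15, SE 0.31, adjusted p = 2.81e-10) and Mxi1 (log2 fold change 1.74, SE 0.23, adjusted p = 2.04e-06), encode antagonists that compete with Myc for its partner Max. Genes of the ribosome itself rose: 37 of 38 cytosolic ribosomal protein genes were called higher, by a median of 0.38 on the log2 scale, with none reaching 2-fold, and 23 were called with no filter on low counts. Rplp1 was at 1184 ± 80.6 CPM at 24 h and 2148 ± 37.9 CPM at 72 h (SD, n = 3, log2 fold change 0.86, SE 0.09, adjusted p = 3.81e-08).

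**Figure D2:**
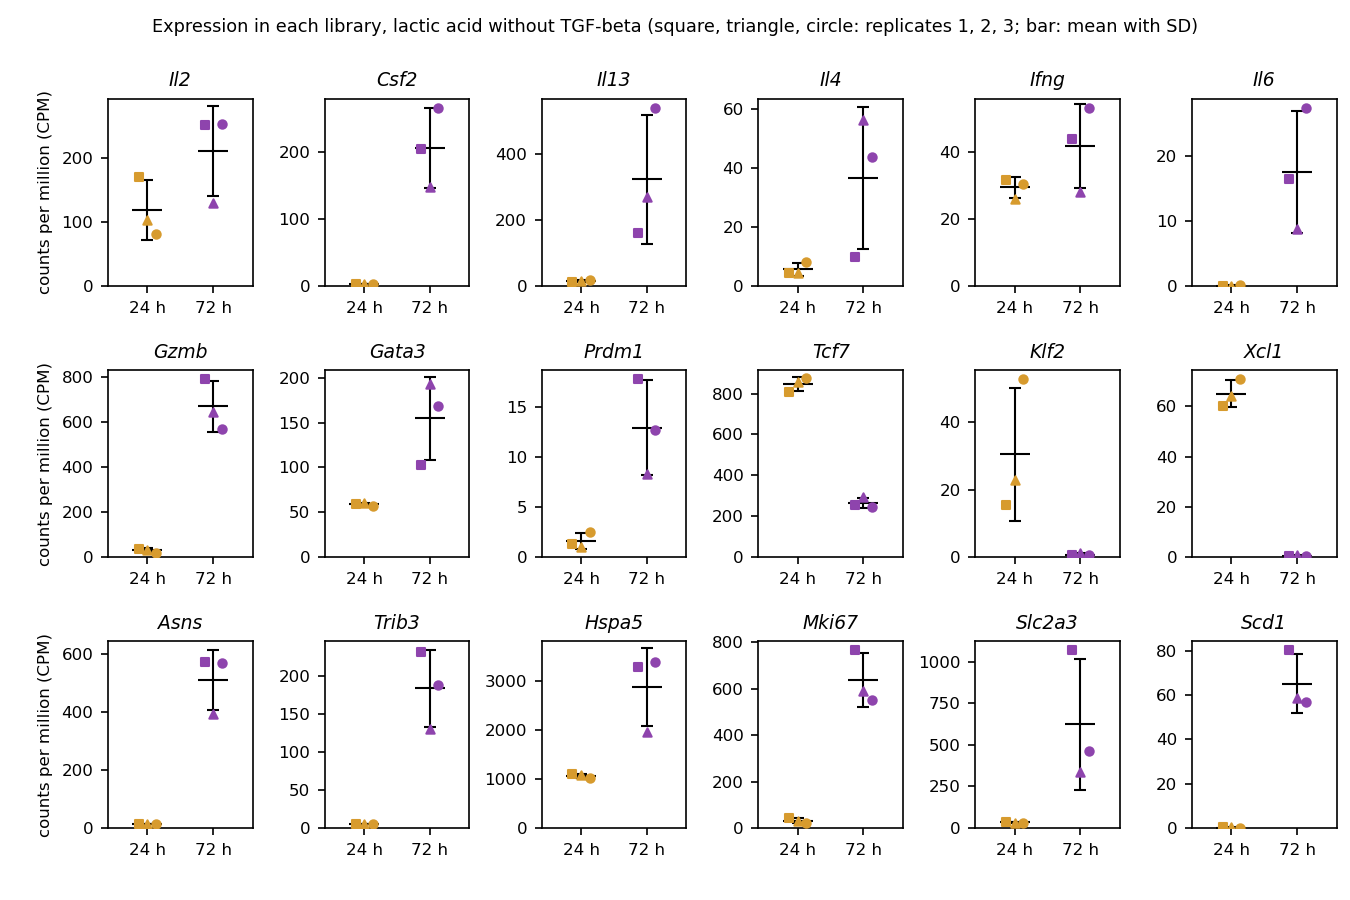
Level (CPM, linear axes from 0) of 18 genes in each of the 6 libraries, with the mean and SD of each time, 24 h left and 72 h right; square, triangle and circle are replicates 1, 2 and 3. Csf2, Il13, Gzmb, Asns, Trib3, Mki67 and Scd1 are near 0 at 24 h and separate at 72 h, Tcf7, Klf2 and Xcl1 are separate in the other direction, and Il2 and Ifng overlap between the times.

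Effector cytokine genes rose. Of 27 T cell cytokines, 15 rose and 3 fell, with a median of 0.96 (13 and 3 without replicate 1 of 72 h, and 1 fell without replicate 1 of 24 h). Csf2, which encodes GM-CSF, was at 2.17, 2.54 and 2.28 CPM at 24 h and 204, 147 and 266 CPM at 72 h (log2 fold change 6.46, SE 0.28, adjusted p = 4.94e-14). Il13 was at 13.4, 15.4 and 19.5 CPM at 24 h and 159, 269.6 and 542 CPM at 72 h (log2 fold change 4.33, SE 0.47, adjusted p = 8.86e-08, and 3.73 without replicate 3 of 72 h). Il5 was at 0.585, 1.72 and 1.64 CPM at 24 h and 32.4, 37.2 and 69.2 CPM at 72 h (log2 fold change 5.13, SE 0.48, adjusted p = 8.49e-09). These 2 cytokines of type 2 immunity and Csf2 were higher in all 3 libraries of 72 h. Il4, the signature cytokine of T helper 2 cells, was at 4.26, 4.51 and 8.02 CPM at 24 h and 9.79, 56.1 and 43.6 CPM at 72 h (log2 fold change 2.71, SE 0.60, adjusted p = 7.18e-04). The groups did not overlap, although replicate 1 of 72 h lay close to the 24 h values. Il10, an anti-inflammatory cytokine, rose from 1.13 ± 0.620 CPM at 24 h to 15.2 ± 6.71 CPM at 72 h (SD, n = 3, log2 fold change 3.76, SE 0.42, adjusted p = 1.30e-07). Il3 rose from 5.15 ± 2.78 CPM at 24 h to 62.2 ± 35.7 CPM at 72 h (SD, n = 3).

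Il2, the growth factor of activated T cells, was at 170.5, 104 and 81.3 CPM at 24 h and 251, 129 and 252 CPM at 72 h. The groups overlapped and the gene was not called (log2 fold change 0.83, SE 0.47, adjusted p = 0.152). With no filter on low counts or with the replicate block it was called higher. Ifng, the signature cytokine of T helper 1 cells, was at 31.9, 26.1 and 30.5 CPM at 24 h and 44.1, 28.3 and 53.4 CPM at 72 h, also with overlap (log2 fold change 0.50, SE 0.48, adjusted p = 0.405). Ltb, which encodes lymphotoxin beta, fell from 169, 163 and 204 CPM at 24 h to 71.1, 77.8 and 57.9 CPM at 72 h (log2 fold change -1.37, SE 0.11, adjusted p = 6.46e-10), without overlap. Tnf was at 180.3 ± 24.3 CPM at 24 h and 116 ± 28.96 CPM at 72 h (SD, n = 3, log2 fold change -0.64, SE 0.21, adjusted p = 0.0161). Its call was lost without replicate 1 of 24 h (adjusted p = 0.0756) and without replicate 2 or replicate 3 of 72 h (0.0867 and 0.0658). Il6 and Il24 came up from almost nothing. Il6 had 1 count over the 24 h libraries and 639 over those of 72 h, a ratio of 605 with an exact 95% interval of 108 to 23932, for counting error only. Its fitted log2 fold change was 8.82, and 10.74 without replicate 3 of 24 h, which held that count. Il24 was at 0.0836, 0.246 and 0 CPM at 24 h and 13.3, 61.6 and 41.5 CPM at 72 h (log2 fold change 8.29, SE 0.90, adjusted p = 8.74e-08, and 9.499 without replicate 2 of 24 h).

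Lineage programs changed in parts. Of 12 T helper 2 genes tested of 13, 6 rose and 3 fell (6 and 1 without replicate 1 of 72 h), with a median of 1.10. Gata3, the transcription factor that defines that lineage, was at 59.0, 60.6 and 56.6 CPM at 24 h and 103, 193 and 169 CPM at 72 h (log2 fold change 1.40, SE 0.22, adjusted p = 1.28e-05). All 72 h libraries were higher. Of 13 T helper 1 genes tested of 14, 7 rose and 4 fell (4 rose without replicate 2 of 72 h, and 2 fell without replicate 3 of 24 h), with a median of 0.44. Il12rb2, the signalling chain of the IL-12 receptor, was at 21.5, 23.5 and 21.8 CPM at 24 h and 241, 225 and 202 CPM at 72 h (log2 fold change 3.32, SE 0.19, adjusted p = 2.72e-12). Runx3 rose too (log2 fold change 1.78, SE 0.15, adjusted p = 2.23e-09). Tbx21, which encodes the lineage factor T-bet, was at 110.4, 111 and 96.5 CPM at 24 h and 108, 168 and 154 CPM at 72 h with overlap (log2 fold change 0.44, SE 0.14, adjusted p = 0.0124). Its call was lost without replicate 3 of 24 h (adjusted p = 0.0582), without replicate 2 or 3 of 72 h (0.0919 and 0.0502) and with the compared groups alone. Eomes, a related T-box factor, fell from 135, 122 and 115 CPM at 24 h to 6.89, 19.5 and 4.99 CPM at 72 h (log2 fold change -3.55, SE 0.46, adjusted p = 1.26e-06, and -4.39 without replicate 2 of 72 h). No 72 h library reached 24 h levels. Eomes is also counted among the CD8 T and NK cell markers above. Of these, Cd8a stayed below 1 CPM throughout, Cd8b1 ranged from 5.93 to 14.1 CPM and Klrk1 was higher in every 72 h library.

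T helper 17 and follicular helper genes are read against the 26.5% of all genes that were called higher and the 20.1% called lower. Of 11 T helper 17 genes tested of 13, 2 rose and 2 fell, counts that ranged from 1 to 4 and from 1 to 3 over the alternatives, with a median of 0.16. Il6st, the shared receptor chain for IL-6, fell from 218 ± 22.5 CPM at 24 h to 49.1 ± 17.3 CPM at 72 h (SD, n = 3, log2 fold change -2.15, SE 0.28, adjusted p = 1.01e-06). Of 12 follicular helper genes, 2 rose and 2 fell (1 rose without replicate 2 or 3 of 24 h or replicate 2 of 72 h), with a median of -0.05. Bcl6, the lineage factor, was at 18.1, 21.1 and 25.4 CPM at 24 h and 31.4, 11.5 and 19.5 CPM at 72 h, with overlap (log2 fold change -0.06, SE 0.44, adjusted p = 0.93). Pou2af1, a transcriptional coactivator, fell from 61.1, 54.8 and 68.2 CPM at 24 h to 9.52, 2.89 and 4.25 CPM at 72 h (log2 fold change -3.49, SE 0.53, adjusted p = 9.47e-06, and -4.12 without replicate 1 of 72 h). Icos, a costimulatory receptor, fell from 182 ± 2.66 CPM at 24 h to 83.5 ± 16.7 CPM at 72 h (SD, n = 3, log2 fold change -1.12, SE 0.19, adjusted p = 4.47e-05). The few Foxp3 counts, 51 over the 24 h libraries and 3 over those of 72 h, give a ratio of 17.96, lower at 72 h, with an exact 95% interval of 5.81 to 89.9 (adjusted p = 0.00153). All 3 counts lay in replicate 2, without which the fitted log2 fold change went from -4.01 to -7.15, and the cells had been sorted for lack of the reporter.

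Genes of cytotoxic granules and death ligands were called higher for 7 of 16 tested (of 20) and lower for 2, with a median of 0.53. Without replicate 3 of 24 h, or replicate 2 or 3 of 72 h, 1 was lower. Gzmb, which encodes the protease granzyme B, was at 36.2, 32.6 and 19.6 CPM at 24 h and 794, 647 and 570.4 CPM at 72 h (log2 fold change 4.51, SE 0.34, adjusted p = 3.28e-10). Nkg7, a granule membrane protein, was at 16.6, 15.02 and 17.9 CPM at 24 h and 89.5, 33.8 and 53.2 CPM at 72 h (log2 fold change 1.83, SE 0.27, adjusted p = 5.86e-06). Both were higher in all 3 libraries of 72 h. Prf1, which encodes the pore-forming protein perforin, was at 2.76, 2.79 and 5.28 CPM at 24 h and 8.16, 2.75 and 7.19 CPM at 72 h with overlap and no call (log2 fold change 0.74, SE 0.41, adjusted p = 0.15). Without replicate 2 of 72 h it was called higher.

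Of 10 chemokines tested of 13, 4 rose (2 without replicate 1 of 72 h) and 1 fell, with a median of 0.44. The one that fell was Xcl1, a ligand for cross-presenting dendritic cells, at 60.3, 64.1 and 71.0 CPM at 24 h and 0.272, 0.723 and 0.572 CPM at 72 h (log2 fold change -6.89, SE 0.30, adjusted p = 4.94e-14), with no overlap. Ccl5 was at 0.502, 0.410 and 1.82 CPM at 24 h and 24.5, 3.40 and 4.74 CPM at 72 h (log2 fold change 3.58, SE 0.92, adjusted p = 0.00264). Replicate 1 of 72 h was its highest library, and without it the log2 fold change was 2.16, adjusted p = 0.057. Without replicate 3 of 24 h it was 4.54. Among 17 chemokine and homing receptors tested of 20, 6 rose (4 without replicate 1 of 72 h) and 6 fell, with a median of -0.13. Ccr7, which guides T cells to lymph nodes, fell from 1119.8, 1134 and 942 CPM at 24 h to 212, 235 and 176 CPM at 72 h (log2 fold change -2.36, SE 0.11, adjusted p = 2.10e-13). Gpr183, a receptor for oxysterols, fell from 122, 119 and 121 CPM at 24 h to 30.8, 17.7 and 22.6 CPM at 72 h (log2 fold change -2.35, SE 0.20, adjusted p = 2.91e-09). In both, every 72 h library was below every 24 h library. Ccr9, the gut-homing receptor, had 107 counts over the 24 h libraries and 0 over those of 72 h, at least 37.7-fold lower. Ccr8, a receptor of type 2 and skin-homing T cells, rose from 64.9 ± 7.09 CPM at 24 h to 172 ± 32.3 CPM at 72 h (SD, n = 3, log2 fold change 1.40, SE 0.29, adjusted p = 3.48e-04).

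Genes of naive and quiescent T cells fell: 22 of 34 were called lower and 3 higher, with a median of -1.11 (22 and 2 without replicate 1 of 72 h). Klf2, the transcription factor that keeps T cells quiescent and recirculating, was at 15.5, 22.99 and 52.9 CPM at 24 h and 0.544, 1.08 and 0.490 CPM at 72 h (log2 fold change -5.37, SE 0.63, adjusted p = 2.96e-07, and -4.71 without replicate 3 of 24 h). Tcf7, which encodes the naive and memory factor TCF-1, was at 809, 858 and 877 CPM at 24 h and 256, 292 and 244 CPM at 72 h (log2 fold change -1.68, SE 0.22, adjusted p = 1.23e-06). The groups were far apart in both. Ly6c1 was at 25.4 ± 4.12 CPM at 24 h and 2.47 ± 1.53 CPM at 72 h (SD, n = 3, log2 fold change -3.32, SE 0.35, adjusted p = 4.95e-08, and -3.95 without replicate 2 of 72 h). The exceptions among the called genes were Klf6 (log2 fold change 1.93, SE 0.19, adjusted p = 1.61e-08), Ly6c2 and Dapl1, of which Dapl1 lost its call without replicate 1 of 72 h (log2 fold change 0.80, adjusted p = 0.0647). Il7r, the IL-7 receptor that sustains resting cells, was at 39.7, 47.9 and 57.9 CPM at 24 h and 74.2, 70.4 and 56.3 CPM at 72 h with overlap and no call (log2 fold change 0.47, SE 0.32, adjusted p = 0.236). With the compared groups alone it was called higher.

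The T cell receptor complex and proximal signalling followed in the same direction with smaller steps, 16 of 29 genes falling and 2 rising, with a median of -0.33. Txk, a Tec family kinase, was at 16.2, 17.6 and 27.9 CPM at 24 h and 2.72, 2.68 and 1.55 CPM at 72 h (log2 fold change -3.14, SE 0.31, adjusted p = 1.62e-08). Dgka, which ends diacylglycerol signals, was at 279, 308 and 375 CPM at 24 h and 150.5, 129 and 101 CPM at 72 h (log2 fold change -1.34, SE 0.19, adjusted p = 4.44e-06). Their 72 h values lay below all 24 h values. Themis, an adaptor of the receptor complex, rose from 44.7, 39.2 and 43.8 CPM at 24 h to 104, 101 and 125 CPM at 72 h (log2 fold change 1.37, SE 0.12, adjusted p = 1.85e-09). Malt1 rose as well, a call lost without replicate 3 of 72 h (log2 fold change 0.43, adjusted p = 0.0551).

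Of 33 immediate early and early activation genes, 10 rose and 10 fell, with a median of -0.04 near that of all genes. The orphan nuclear receptors of receptor signalling fell. Nr4a1 was at 599, 579.6 and 711 CPM at 24 h and 247, 248 and 210.3 CPM at 72 h (log2 fold change -1.42, SE 0.16, adjusted p = 1.08e-07). Nr4a3 was at 663, 622 and 703 CPM at 24 h and 170.1, 278 and 217 CPM at 72 h (log2 fold change -1.58, SE 0.17, adjusted p = 7.55e-08). Neither overlapped. The early surface marker Cd69 fell from 253 ± 19.7 CPM at 24 h to 103 ± 12.2 CPM at 72 h (SD, n = 3, log2 fold change -1.30, SE 0.18, adjusted p = 2.23e-06). Irf4, a transcription factor induced in proportion to receptor signal, fell from 1488 ± 25.4 CPM at 24 h to 717 ± 91.2 CPM at 72 h (SD, n = 3, log2 fold change -1.05, SE 0.14, adjusted p = 1.83e-06). Egr2 was at 141, 140.5 and 162 CPM at 24 h and 183, 113 and 157 CPM at 72 h with overlap (log2 fold change 0.03, SE 0.28, adjusted p = 0.942). Batf3, a partner of Irf4 and Jun, rose from 0.251, 0.575 and 0.182 CPM at 24 h to 7.80, 40.7 and 28.03 CPM at 72 h (log2 fold change 6.19, SE 0.74, adjusted p = 3.35e-07, and 6.81 without replicate 2 of 24 h).

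Of 18 effector and exhaustion transcription factors, 5 rose and 6 fell, with a median of -0.27. Prdm1, which encodes the effector factor Blimp-1, was at 1.34, 0.985 and 2.46 CPM at 24 h and 17.9, 8.32 and 12.7 CPM at 72 h (log2 fold change 3.02, SE 0.53, adjusted p = 6.50e-05). Bhlhe40, which supports cytokine production, was at 132, 114 and 114 CPM at 24 h and 999, 609.7 and 807 CPM at 72 h (log2 fold change 2.75, SE 0.19, adjusted p = 8.22e-11). Every library of 72 h was higher for both. Among zinc finger factors of the T cell lineage, Ikzf3 fell from 279 ± 55.6 CPM at 24 h to 67.6 ± 10.5 CPM at 72 h (SD, n = 3, log2 fold change -2.05, SE 0.16, adjusted p = 8.38e-10). Bcl11b fell from 292 ± 12.7 CPM at 24 h to 86.1 ± 12.4 CPM at 72 h (SD, n = 3, log2 fold change -1.76, SE 0.14, adjusted p = 7.75e-10).

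Receptors that restrain T cells split into both directions, 7 of 16 tested (of 17) rising and 3 falling, with a median of 0.64. Ctla4 was at 31.4, 31.1 and 37.9 CPM at 24 h and 280.2, 167 and 192 CPM at 72 h (log2 fold change 2.67, SE 0.18, adjusted p = 5.40e-11). Havcr2, which encodes TIM-3, was at 0.585, 1.81 and 1.73 CPM at 24 h and 31.5, 12.5 and 18.6 CPM at 72 h (log2 fold change 3.91, SE 0.41, adjusted p = 4.36e-08). Neither overlapped between the times. Lag3 was at 99.3, 117 and 116 CPM at 24 h and 311, 131 and 179.7 CPM at 72 h (log2 fold change 0.90, SE 0.32, adjusted p = 0.0224). That call was lost without replicate 1 of 72 h (log2 fold change 0.48, adjusted p = 0.247) and without replicate 1 or 3 of 24 h (adjusted p = 0.0733 and 0.0501). Pdcd1, which encodes PD-1, was at 115, 102 and 105 CPM at 24 h and 144, 63.9 and 107 CPM at 72 h with overlap (log2 fold change -0.04, SE 0.28, adjusted p = 0.925). The genes that fell were Vsir (log2 fold change -2.49, SE 0.18, adjusted p = 2.29e-10), Cd160 (log2 fold change -1.997, SE 0.25, adjusted p = 7.62e-07) and Nt5e (log2 fold change -3.58, SE 0.45, adjusted p = 7.64e-07, and -4.61 without replicate 1 of 72 h), which encode the checkpoint VISTA, an HVEM-binding receptor and the adenosine-forming enzyme CD73.

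Costimulatory and TNF receptor family genes were called higher for 8 of 21 and lower for 7, with a median of 0.18. Tnfrsf8, which encodes CD30, was at 2.68, 2.71 and 1.55 CPM at 24 h and 45.96, 79.2 and 69.7 CPM at 72 h (log2 fold change 4.80, SE 0.28, adjusted p = 5.78e-12). Cd40lg, the ligand through which T cells help B cells, was at 117, 91.2 and 111 CPM at 24 h and 33.6, 28.9 and 31.6 CPM at 72 h (log2 fold change -1.76, SE 0.21, adjusted p = 3.34e-07). The 2 genes moved in opposite directions, each without overlap. Of 18 genes of IL-2 receptor and JAK-STAT signalling, 5 rose and 6 fell, with a median of -0.17. Il2ra, the high-affinity chain of the IL-2 receptor, was at 793, 804 and 755 CPM at 24 h and 1341, 1906 and 1588 CPM at 72 h (log2 fold change 1.04, SE 0.20, adjusted p = 2.24e-04). Jak2 rose (log2 fold change 1.43, SE 0.26, adjusted p = 7.49e-05). Jak1 fell (log2 fold change -0.94, SE 0.09, adjusted p = 7.38e-09).

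The amino acid response was among the strongest changes. Of 30 genes of the ATF4 amino acid response, 29 rose and 1 (Cbs) was not called, with a median of 2.34, and 29 rose without replicate 1 of 72 h as well. Atf4 itself was at 317, 316 and 294 CPM at 24 h and 997, 835 and 943 CPM at 72 h (log2 fold change 1.58, SE 0.17, adjusted p = 8.32e-08). Asns, which makes asparagine, was at 14.5, 13.3 and 12.3 CPM at 24 h and 575, 393 and 569.6 CPM at 72 h (log2 fold change 5.26, SE 0.33, adjusted p = 1.30e-11). Trib3, a pseudokinase that dampens ATF4, was at 5.43, 4.60 and 5.37 CPM at 24 h and 232, 130.5 and 187 CPM at 72 h (log2 fold change 5.15, SE 0.48, adjusted p = 7.61e-09). In these 3 genes the times did not overlap. Ddit3, which encodes the stress factor CHOP, was at 9.28, 12.4 and 14.5 CPM at 24 h and 137, 55.5 and 67.7 CPM at 72 h (log2 fold change 2.85, SE 0.60, adjusted p = 4.77e-04).

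Cth and Slc7a11, 2 genes of cysteine supply, were among the steepest rises of that list. Cbs, also of cysteine synthesis, was the member not called, with log2 fold changes of 0.30 to 0.66 over the alternatives. Cth, the last enzyme of cysteine synthesis from methionine, was at 1.51, 0.985 and 0.182 CPM at 24 h and 251, 75.9 and 177 CPM at 72 h (log2 fold change 7.51, SE 0.80, adjusted p = 6.79e-08). Slc7a11, the cystine importer, was at 0.502, 0.575 and 0.729 CPM at 24 h and 55.0, 19.2 and 40.9 CPM at 72 h (log2 fold change 5.98, SE 0.75, adjusted p = 8.05e-07). Replicate 2 of 72 h was the lowest of the later libraries for both, and still above all 24 h libraries. Nupr1, a small stress-induced nuclear protein whose promoter is printed above, had 0 counts at 24 h and 920 over the 72 h libraries, at least 290-fold higher. Vldlr, a lipoprotein receptor, had 2 counts at 24 h, both in replicate 1, and 1755 at 72 h, a ratio of 831 with an exact 95% interval of 230 to 6865. The fitted log2 fold change of Nupr1, which depends on the prior count, was 11.30 and 10.71 without replicate 1 of 72 h, and that of Vldlr was 9.51 and 12.22 without replicate 1 of 24 h.

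The unfolded protein response rose across nearly its whole list, 22 of 23 genes (21 without replicate 1 of 72 h), with a median of 1.02. Hspa5, which encodes the main chaperone of the endoplasmic reticulum, BiP, was at 1099.8, 1081 and 1024 CPM at 24 h and 3293, 1955 and 3405 CPM at 72 h (log2 fold change 1.43, SE 0.24, adjusted p = 2.80e-05). Herpud1, which takes part in degradation at the endoplasmic reticulum, was at 53.5, 48.2 and 48.9 CPM at 24 h and 365, 234 and 390.0 CPM at 72 h (log2 fold change 2.71, SE 0.24, adjusted p = 4.10e-09). Creld2, a secretory folding factor, was at 55.1, 55.7 and 51.4 CPM at 24 h and 218, 121 and 199 CPM at 72 h (log2 fold change 1.73, SE 0.19, adjusted p = 7.64e-08). In each, all 72 h libraries were above all 24 h libraries and replicate 2 was the lowest of them. The list's transcription factor Xbp1 rose from 156 ± 5.86 CPM at 24 h to 266 ± 14.4 CPM at 72 h (SD, n = 3, log2 fold change 0.77, SE 0.16, adjusted p = 4.19e-04). Dnajb9, a cochaperone, was the 1 member without a call, at 12.4, 12.7 and 10.3 CPM at 24 h and 13.9, 8.39 and 11.8 CPM at 72 h (log2 fold change -0.06, SE 0.29, adjusted p = 0.881). Of 15 cytosolic heat shock chaperones tested of 16, 2 were higher and 2 lower, with a median of -0.17. The 2 called higher were Hspa1a at 0.167, 0.328 and 0.820 CPM at 24 h and 34.99, 0.795 and 0.490 CPM at 72 h and Hspa1b at 0.920, 1.07 and 2.00 CPM at 24 h and 64.3, 1.52 and 2.62 CPM at 72 h. Replicate 1 of 72 h alone was high for both. Without that library their log2 fold changes were 0.58, adjusted p = 0.874, and 0.63, adjusted p = 0.8, and both calls were also lost with any 1 of the 24 h libraries left out. The log2 fold change of Hspa1a was 5.54 without replicate 3 of 24 h and 5.35 without replicate 3 of 72 h. The 2 called lower became 4 without replicate 1 and 1 without replicate 3 of 72 h, 4 with no scaling, no filter on low counts or the replicate block, and 5 with the compared groups alone.

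**Figure D3:**
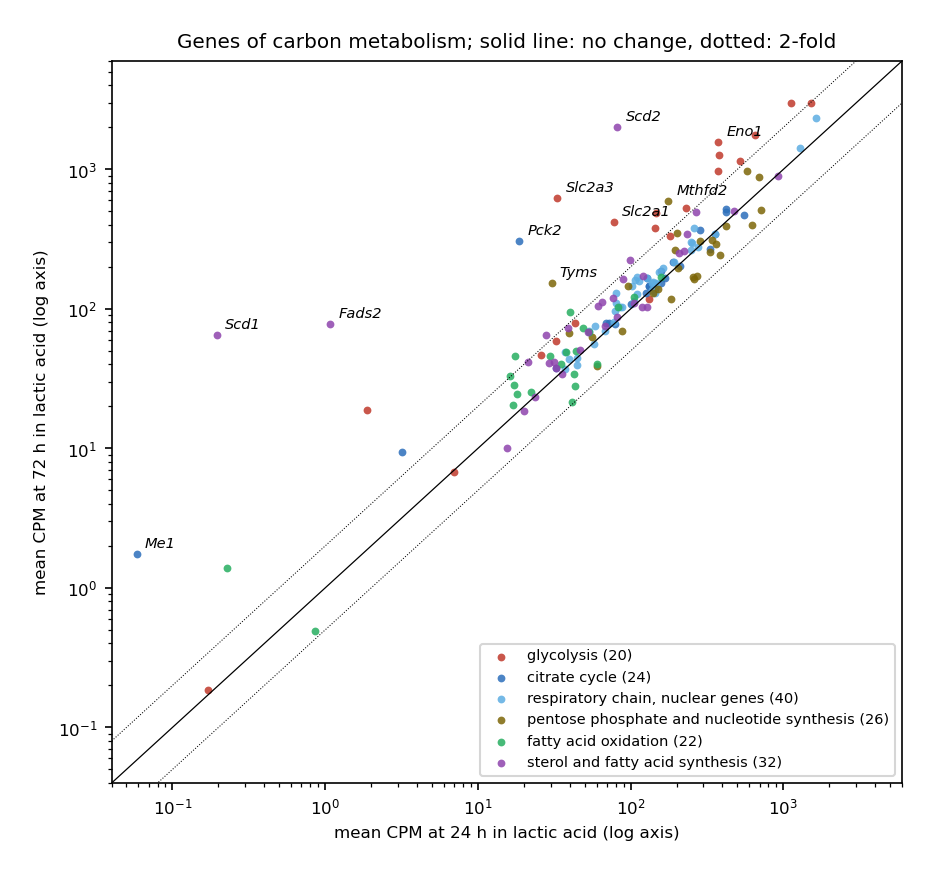
Mean level at 24 h (horizontal) and 72 h (vertical) in lactic acid, in CPM on log axes, of genes of 6 metabolic lists, with a solid line of equality and dotted lines at 2-fold. Glycolysis genes lie mostly above the upper dotted line, genes of the citrate cycle and respiratory chain lie mostly between the lines, and Scd1, Scd2, Fads2, Slc2a3, Pck2 and Me1 are among those far above.

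Glycolysis rose as a pathway in a medium of low glucose and added lactic acid. Of 20 genes, 17 rose and none fell, also without replicate 1 of 72 h, with a median of 1.29. Slc2a1, the main glucose transporter of activated T cells, was at 85.8, 72.1 and 74.9 CPM at 24 h and 464, 336 and 451 CPM at 72 h (log2 fold change 2.43, SE 0.14, adjusted p = 4.06e-12). Slc2a3, a second and high-affinity transporter, was at 33.2 ± 2.81 CPM at 24 h and 624 ± 393 CPM at 72 h (SD, n = 3, log2 fold change 4.23, SE 0.50, adjusted p = 3.43e-07, and 3.58 without replicate 1 of 72 h). Hk2, the first enzyme of the pathway, was at 162, 137 and 135 CPM at 24 h and 344, 367 and 433 CPM at 72 h (log2 fold change 1.40, SE 0.15, adjusted p = 7.56e-08). Every library of 72 h was above every library of 24 h for these genes. Further down the pathway, Tpi1 (log2 fold change 1.73, SE 0.15, adjusted p = 1.64e-09), Gapdh (log2 fold change 1.42, SE 0.12, adjusted p = 2.25e-09), Eno1 (log2 fold change 2.08, SE 0.12, adjusted p = 2.83e-12) and Pkm (log2 fold change 0.99, SE 0.11, adjusted p = 9.08e-08) rose. Pfkfb3, which makes the activator of phosphofructokinase, was not called (log2 fold change -0.16, SE 0.10, adjusted p = 0.21).

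Handling of lactate and pyruvate was called higher for 11 of 23 genes tested (of 25) and lower for 3, with a median of 0.31. Ldha, the lactate dehydrogenase subunit that favours lactate formation, was at 1442, 1319 and 1125 CPM at 24 h and 3067, 3525 and 3885 CPM at 72 h (log2 fold change 1.43, SE 0.17, adjusted p = 3.36e-07). Slc16a3, the monocarboxylate carrier MCT4 that exports lactate, was at 27.4, 26.9 and 18.5 CPM at 24 h and 489, 314 and 425 CPM at 72 h (log2 fold change 4.07, SE 0.25, adjusted p = 8.71e-12). Neither overlapped between the times. Slc16a1, the carrier MCT1 that moves lactate in either direction, was at 319, 304 and 276 CPM at 24 h and 313, 332 and 354 CPM at 72 h with overlap and no call (log2 fold change 0.15, SE 0.11, adjusted p = 0.281). Ldhb, the subunit that favours lactate oxidation, was at 19.9, 19.7 and 17.9 CPM at 24 h and 23.5, 22.6 and 20.8 CPM at 72 h (log2 fold change 0.22, SE 0.12, adjusted p = 0.153). Gpt2, which turns pyruvate and glutamate into alanine and a citrate cycle acid, rose from 8.36, 6.73 and 8.02 CPM at 24 h to 113, 92.5 and 114 CPM at 72 h (log2 fold change 3.79, SE 0.31, adjusted p = 1.13e-09). Of the kinases that close pyruvate's entry into the citrate cycle, Pdk1 rose from 128 ± 1.501 CPM at 24 h to 219 ± 7.95 CPM at 72 h (SD, n = 3, log2 fold change 0.77, SE 0.10, adjusted p = 2.27e-06). The related Pdk2 fell from 7.30 ± 1.33 CPM at 24 h to 1.31 ± 0.602 CPM at 72 h (SD, n = 3, log2 fold change -2.50, SE 0.42, adjusted p = 3.95e-05). Of 21 genes of proton sensing and acid handling tested of 24, 6 rose and 1 fell (4 and 0 without replicate 1 of 72 h, and none fell without replicate 1 or 3 of 24 h), with a median of 0.19. Gpr65, a receptor that senses extracellular protons, was at 60.1, 57.96 and 54.5 CPM at 24 h and 101, 66.3 and 79.6 CPM at 72 h (log2 fold change 0.52, SE 0.11, adjusted p = 5.71e-04). Atp6v0a1, a proton pump subunit, was at 7.52 ± 0.132 CPM at 24 h and 24.2 ± 5.09 CPM at 72 h (SD, n = 3, log2 fold change 1.68, SE 0.26, adjusted p = 1.56e-05).

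The hypoxia response rose in 13 of 16 genes, with none falling and a median of 1.599. P4ha2, a collagen prolyl hydroxylase subunit, was at 1.25, 0.657 and 0.729 CPM at 24 h and 118, 32.97 and 62.0 CPM at 72 h (log2 fold change 6.31, SE 0.63, adjusted p = 2.26e-08). Egln3, an oxygen-sensing prolyl hydroxylase that HIF-1 induces, was at 15.4, 14.1 and 14.4 CPM at 24 h and 224, 198 and 226 CPM at 72 h (log2 fold change 3.88, SE 0.16, adjusted p = 3.88e-14). Vegfa, the angiogenic factor, was at 14.2 ± 0.379 CPM at 24 h and 146 ± 24.6 CPM at 72 h (SD, n = 3, log2 fold change 3.36, SE 0.21, adjusted p = 1.87e-11). Hif1a transcripts, whose product is controlled mainly at the protein level, were at 378, 368 and 349.8 CPM at 24 h and 326, 438 and 372 CPM at 72 h with overlap (log2 fold change 0.05, SE 0.12, adjusted p = 0.752). Slc2a1 and Pdk1 are counted both here and above.

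Genes of mitochondrial energy metabolism are read against the 26.5% of all genes that were called higher. Of 24 citrate cycle genes 5 rose (3 with no filter on low counts) and none fell, with a median of 0.16. Of 40 nuclear genes of the respiratory chain 10 rose and none fell, with a median of 0.21, a count that ranged from 7 to 15 over the alternatives and was 12 without replicate 1 of 72 h. Pck2, the mitochondrial enzyme that makes phosphoenolpyruvate and which ATF4 also controls, was at 18.8, 20.03 and 17.2 CPM at 24 h and 355, 246 and 324 CPM at 72 h (log2 fold change 4.04, SE 0.33, adjusted p = 1.36e-09). Idh1, a cytosolic source of NADPH, was at 3.19 ± 0.167 CPM at 24 h and 9.41 ± 2.53 CPM at 72 h (SD, n = 3, log2 fold change 1.55, SE 0.22, adjusted p = 4.62e-06). Uqcrq, a complex III subunit, was at 111 ± 4.53 CPM at 24 h and 169.7 ± 4.81 CPM at 72 h (SD, n = 3, log2 fold change 0.62, SE 0.14, adjusted p = 0.00117). Of 13 protein-coding genes of the mitochondrial genome 7 could be tested and the other 6 had no counts in these libraries, which is no measure of their level. Of those 7, mt-Nd6 was called lower, a call that did not survive leaving out any 1 of 5 of the 6 libraries, all but replicate 2 of 24 h. Mitochondrial transcripts summed to 8059 to 13276 CPM at 24 h and 10370 to 11281 CPM at 72 h.

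Lipid genes rose in part. Of 32 genes of sterol and fatty acid synthesis tested of 33, 16 rose and 1 fell (15 and 1 without replicate 1 of 72 h), with a median of 0.40. None fell without replicate 2 or 3 of either time. Scd1, a desaturase that makes monounsaturated fatty acids, was at 0.251, 0.246 and 0.0911 CPM at 24 h and 80.3, 58.4 and 56.7 CPM at 72 h (log2 fold change 8.28, SE 0.51, adjusted p = 1.28e-11). Scd2, its relative, was at 94.8, 84.5 and 66.1 CPM at 24 h and 2342, 1855 and 1864 CPM at 72 h (log2 fold change 4.63, SE 0.21, adjusted p = 5.66e-14). Fads2, the first desaturase of polyunsaturated fatty acids, was at 1.25, 0.985 and 1.00 CPM at 24 h and 99.8, 62.6 and 70.2 CPM at 72 h (log2 fold change 6.15, SE 0.30, adjusted p = 3.25e-13). All 3 were far apart between the times. Srebf1, a transcription factor of fatty acid synthesis, rose from 99.4 ± 10.3 CPM at 24 h to 224 ± 14.03 CPM at 72 h (SD, n = 3, log2 fold change 1.17, SE 0.08, adjusted p = 1.67e-10). Fasn, fatty acid synthase itself, was at 925, 868 and 964 CPM at 24 h and 707, 968 and 1028 CPM at 72 h and was not called (log2 fold change -0.03, SE 0.31, adjusted p = 0.952). Hmgcs1, of cholesterol synthesis, was at 242, 233 and 194 CPM at 24 h and 278, 261 and 242 CPM at 72 h and was not called (log2 fold change 0.22, SE 0.23, adjusted p = 0.454). Soat2, which esterifies cholesterol, rose from 0.251, 0.410 and 1.00 CPM at 24 h to 110.2, 47.1 and 66.5 CPM at 72 h (log2 fold change 7.07, SE 0.90, adjusted p = 8.73e-07, and 7.77 without replicate 3 of 24 h). It was one of 6 sterol efflux and LXR target genes called higher of 11, with 2 lower (4 and 2 without replicate 1 of 72 h), and the list's median was 0.34. Of 22 fatty acid oxidation genes tested of 23, 12 rose and 3 fell. Acadl, the long-chain dehydrogenase, rose from 40.4 ± 4.12 CPM at 24 h to 95.7 ± 7.40 CPM at 72 h (SD, n = 3, log2 fold change 1.24, SE 0.10, adjusted p = 8.10e-10). Slc25a20, the carnitine carrier, fell from 41.1 ± 1.38 CPM at 24 h to 21.4 ± 1.68 CPM at 72 h (SD, n = 3, log2 fold change -0.94, SE 0.10, adjusted p = 3.42e-08). Cpt1a, the gate of the pathway, was at 38.8, 40.6 and 49.3 CPM at 24 h and 31.3, 38.7 and 32.6 CPM at 72 h without a call (log2 fold change -0.32, SE 0.14, adjusted p = 0.0677). It was called lower with RLE factors, no scaling, DESeq2 or the replicate block, and without replicate 2 of 72 h.

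Of 26 genes of the pentose phosphate pathway and nucleotide synthesis, 6 rose and 3 fell, and those that fell ranged from 1 (without replicate 1 of 72 h) to 8 (no filter on low counts, or the replicate block). The median was -0.11. Mthfd2, a mitochondrial one-carbon enzyme, was at 191, 181 and 159 CPM at 24 h and 606, 537 and 635 CPM at 72 h (log2 fold change 1.74, SE 0.18, adjusted p = 3.00e-08). Tyms, thymidylate synthase, was at 38.1, 27.99 and 25.05 CPM at 24 h and 177, 141 and 142 CPM at 72 h (log2 fold change 2.33, SE 0.18, adjusted p = 5.17e-10). Their times did not overlap. Of 21 oxidative stress and NRF2 target genes, 9 rose and none fell (7 without replicate 1 of 72 h), with a median of 0.29. Mt1, a metallothionein that binds zinc, was at 0.334, 0 and 0 CPM at 24 h and 46.9, 36.95 and 47.6 CPM at 72 h (log2 fold change 8.46, SE 0.69, adjusted p = 9.88e-10). The fitted change was 12.06 without replicate 1 of 24 h, which held all its 24 h counts. Hmox1, which degrades haem, was at 3.68, 4.43 and 4.37 CPM at 24 h and 133, 22.4 and 46.3 CPM at 72 h (log2 fold change 4.004, SE 0.89, adjusted p = 7.18e-04). Replicate 1 of 72 h was the highest library, and without it the log2 fold change was 3.03, adjusted p = 0.0079. Gpx4, which detoxifies lipid peroxides, was at 24.7 ± 0.963 CPM at 24 h and 62.5 ± 2.30 CPM at 72 h (SD, n = 3, log2 fold change 1.34, SE 0.11, adjusted p = 7.47e-10).

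Interferon response genes fell: 24 of 40 were called lower and 5 higher, with a median of -1.10 (25 and 3 without replicate 1 of 72 h, and 3 rose without replicate 2 or 3 of 24 h). Gbp2, a guanylate-binding protein of host defence, was at 956, 975 and 1028 CPM at 24 h and 211, 301 and 273 CPM at 72 h (log2 fold change -1.91, SE 0.25, adjusted p = 9.85e-07). Ifit1, an RNA-binding antiviral protein, was at 10.4, 11.8 and 15.2 CPM at 24 h and 4.99, 2.02 and 0.981 CPM at 72 h (log2 fold change -2.25, SE 0.43, adjusted p = 1.60e-04, and -3.04 without replicate 1 of 72 h). No 72 h library reached the range of 24 h in these genes. Irf7, which amplifies type I interferon, was at 5.43, 9.85 and 23.05 CPM at 24 h and 2.90, 1.95 and 1.31 CPM at 72 h (log2 fold change -2.64, SE 0.63, adjusted p = 0.00145). Replicate 3 of 24 h was its highest library, without which the log2 fold change was -1.90, adjusted p = 0.0207. Ifit3b had 65 counts at 24 h and 0 at 72 h, at least 22.9-fold lower, although reads may be split between it and the near-identical Ifit3. The RNA sensor Ifih1 rose (log2 fold change 1.09, SE 0.23, adjusted p = 3.59e-04). Of 19 genes of MHC class I presentation, some of them shared with the interferon list, 3 rose and 5 fell (4 and 3 without replicate 1 of 72 h), with a median of -0.04. Nlrc5, the transactivator of class I genes, was at 329 ± 59.2 CPM at 24 h and 204 ± 14.2 CPM at 72 h (SD, n = 3, log2 fold change -0.69, SE 0.15, adjusted p = 5.32e-04).

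Of 24 Bcl-2 family and death genes, 9 rose (5 without replicate 1 of 72 h) and 2 fell, with a median of 0.28. Casp1, the protease of inflammasomes, was at 2.34, 2.13 and 3.37 CPM at 24 h and 35.9, 21.3 and 30.2 CPM at 72 h (log2 fold change 3.48, SE 0.34, adjusted p = 2.19e-08). The survival gene Mcl1 fell (log2 fold change -0.78, SE 0.08, adjusted p = 3.10e-08). The other that fell was Bcl2l11, which encodes the death inducer BIM, at 208, 250.05 and 240.1 CPM at 24 h and 132, 41.7 and 44.1 CPM at 72 h (log2 fold change -1.68, SE 0.49, adjusted p = 0.00669, and -2.45 without replicate 1 of 72 h). Both stayed below all 24 h libraries at 72 h. Of 29 lysosome and autophagy genes, 8 rose and 5 fell (7 and 8 without replicate 1 of 72 h), shares near those of all genes, with a median of 0.02. Among them were Gabarapl1, an autophagosome protein (log2 fold change 1.54, SE 0.26, adjusted p = 3.20e-05), and Hexa, a lysosomal hexosaminidase subunit (log2 fold change -0.70, SE 0.12, adjusted p = 3.77e-05). Of 14 genes of DNA methylation and demethylation, 4 rose and 2 fell, counts that became 2 and 1 without replicate 1 of 72 h or replicate 3 of 24 h, and its median was 0.14. With any 1 of the 6 libraries left out, at most 1 fell. Tet1, a 5-methylcytosine oxidase, was at 4.68, 3.69 and 6.19 CPM at 24 h and 9.97, 12.4 and 9.24 CPM at 72 h (log2 fold change 1.12, SE 0.20, adjusted p = 6.69e-05).

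Among the 12 largest rises with a mean of at least 5 CPM, Nos2, which encodes the inducible nitric oxide synthase, had 0 counts at 24 h and 1194 at 72 h, at least 377-fold higher. Its levels at 72 h were 56.9, 10.8 and 33.998 CPM, replicate 1 being the highest and replicate 2 the lowest, and its fitted log2 fold change was 11.69, or 11.08 without replicate 1. Tgm2, tissue transglutaminase, was at 1.51, 1.15 and 0.547 CPM at 24 h and 381, 433 and 392.04 CPM at 72 h (log2 fold change 8.53, SE 0.37, adjusted p = 4.58e-14), with the 3 libraries of 72 h close together. Aldh1l2, a mitochondrial folate enzyme, was at 0.334, 0.328 and 0.0911 CPM at 24 h and 159.6, 37.5 and 89.6 CPM at 72 h (log2 fold change 8.49, SE 1.01, adjusted p = 3.20e-07, and 7.89 without replicate 1 of 72 h). Col5a3, a collagen chain, had 1 count at 24 h and 578 at 72 h, a ratio of 547 with an exact 95% interval of 97.8 to 21651. Smtnl2 had 1 and 456, a ratio of 432 with an interval of 77.1 to 17089. Without replicate 1 of 24 h, which held that single count of each, the fitted log2 fold changes went from 8.70 to 10.62 and from 8.36 to 10.28. Otogl had 0 and 381, at least 120-fold higher, and its call was lost in DESeq2. The fitted log2 fold change of Otogl was 9.97, and 9.34 without replicate 3 of 72 h. The other 6 of the 12 were Nupr1, Vldlr, Il6, Il24, Scd1 and Mt1, all given above.

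The 12 largest falls by the same rule were led by Xcl1 and held several interferon-inducible genes besides Oasl2. Ifi209 was at 16.1, 20.8 and 37.3 CPM at 24 h and 1.18, 1.01 and 0.572 CPM at 72 h (log2 fold change -4.74, SE 0.65, adjusted p = 2.66e-06). Ifi208 was at 9.98 ± 5.99 CPM at 24 h and 0.226 ± 0.243 CPM at 72 h (SD, n = 3, log2 fold change -5.31, SE 0.84, adjusted p = 1.73e-05, and -6.69 without replicate 2 of 72 h). Ifit1bl1 was at 13.4 ± 6.35 CPM at 24 h and 0.2201 ± 0.313 CPM at 72 h (SD, n = 3, log2 fold change -5.74, SE 0.88, adjusted p = 1.23e-05, and -7.97 without replicate 2 of 72 h). In these 3, replicate 3 was the highest of the 24 h libraries, as it was for Oasl2 (log2 fold change -3.42, SE 0.77, adjusted p = 8.09e-04, and -2.72 without it). Ms4a4b, a T cell membrane protein, fell from 200.2, 195 and 263 CPM at 24 h to 17.95, 8.53 and 4.66 CPM at 72 h (log2 fold change -4.41, SE 0.64, adjusted p = 4.98e-06, and -5.05 without replicate 1 of 72 h). Nod1, a sensor of bacterial peptidoglycan, fell as well (log2 fold change -3.63, SE 0.61, adjusted p = 3.73e-05), as did the syntrophin Sntb1 (log2 fold change -3.45, SE 0.27, adjusted p = 6.00e-10). Klf2, Nt5e, Eomes and Pou2af1 made up the rest.

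The same interval was sampled in medium without lactic acid or TGF-beta (3 libraries at 24 h and 2 at 72 h, none shared with the 6 above). There 6538 genes were called, of which 4824 moved in the same direction as in lactic acid and 3 in the opposite one, 72.0% of the calls in lactic acid and 73.8% of those without it. A test of whether the change over time differed between the 2 media called 0 of 14375 genes (0%) with edgeR, with 1313 below an unadjusted p of 0.05. DESeq2 called 18. Without replicate 2 of the 72 h libraries of the medium with neither addition, edgeR called 40, where the 1 library left in that group is assumed to vary like the others. A count of 0 here does not show that the changes were equal.

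Pdk2, which closes entry into the citrate cycle, was among the 5 genes with the smallest p of that test. In lactic acid it fell (-2.50 on the log2 scale), and without it the log2 fold change was 0.57 (log2 difference -3.07, SE 0.58, adjusted p = 0.122). Trerf1 had 0.70 and 1.86 (log2 difference -1.16, SE 0.22, adjusted p = 0.122). Ltb had -1.37 and -0.56 (log2 difference -0.82, SE 0.16, adjusted p = 0.122), and Bcl9 -0.84 and -0.07 (log2 difference -0.77, SE 0.15, adjusted p = 0.122), each as log2 fold changes with and without lactic acid. The fifth, Dus4l, had 0.05 and -0.76 (log2 difference 0.81, SE 0.17, adjusted p = 0.147). None passed the adjusted threshold. The median log2 fold changes over time were 3.01 with and 2.79 without lactic acid for G2 and M phase, 1.02 and 1.01 for the unfolded protein response, 1.29 and 1.26 for glycolysis, 2.34 and 1.84 for ATF4 genes and 1.599 and 2.13 for hypoxia genes.

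With TGF-beta added to lactic acid (3 libraries at each time, again none shared), the change over time differed in 2068 genes (14.4%), 967 (6.73%) higher and 1101 (7.66%) lower with TGF-beta. The split turned with the scaling, to 1211 higher and 841 lower with RLE factors and 1408 and 974 in DESeq2. It also turned without single libraries in lactic acid alone, to 1168 and 877 without replicate 1 of 72 h. Without replicate 3 of 24 h it was 887 and 726, and without replicate 3 of 72 h 775 and 737. The split did not turn with any other library left out. In the unfolded protein response 16 of 23 genes were lower with TGF-beta, against 7.66% of all genes. Its median log2 fold change over time was 1.02 in lactic acid, 0.06 with TGF-beta added, 1.01 with neither and 0.36 in TGF-beta alone. Hspa5 had 1.43 in lactic acid and -0.02 with TGF-beta added (log2 difference -1.46, SE 0.33, adjusted p = 0.00392). Creld2 had 1.73 and 0.06 (log2 difference -1.66, SE 0.26, adjusted p = 1.25e-04). Manf, a secreted folding factor, had 1.66 and 0.27 (log2 difference -1.39, SE 0.18, adjusted p = 1.83e-05).

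**Figure D4:**
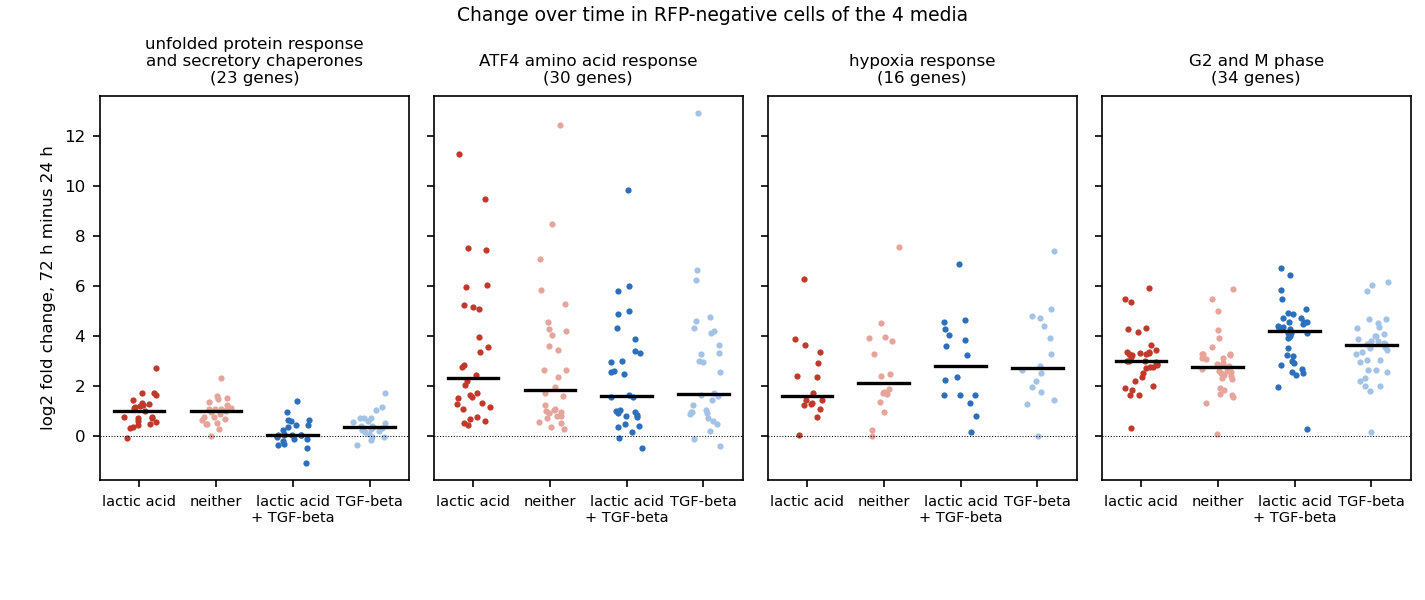
Log2 fold change (72 h minus 24 h) of each gene of 4 lists in cells of the 4 media, with the median as a black line and a dotted line at 0. For the unfolded protein response the median is 1.02 in lactic acid, 1.01 in neither, 0.06 in lactic acid with TGF-beta and 0.36 in TGF-beta, while for G2 and M phase it is 3.01, 2.79, 4.21 and 3.63.

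Cell division differed in the other direction, with 12 of 34 G2 and M phase genes rising more with TGF-beta and none less. With 1 library left out at a time that count ranged from 4, without replicate 1 of the 24 h libraries in lactic acid, to 17, without replicate 3 of the same. It was 18 in DESeq2 and 19 with no filter on low counts. Foxm1 had 3.00 and 4.27 (log2 difference 1.28, SE 0.21, adjusted p = 2.36e-04). Of 16 hypoxia genes 7 were higher with TGF-beta and none lower, and of 20 glycolysis genes 5 and none. Of 30 ATF4 genes 7 were lower and none higher. With 1 library left out at a time, 4 to 9 hypoxia genes were higher and 3 to 12 ATF4 genes lower, while 14 to 18 unfolded protein response genes were lower and 4 to 6 glycolysis genes higher. The glycolysis count was 7 with no scaling or the replicate block and 10 in DESeq2, and the ATF4 count 4 with no scaling and 14 with the replicate block. T helper 1 genes were higher for 7 of 13 and lower for none. Of 27 cytokines, 3 were higher with TGF-beta and 7 lower. Il2 had 0.83 in lactic acid and -3.33 with TGF-beta (log2 difference -4.16, SE 0.80, adjusted p = 9.44e-04). Csf2 had 6.46 and 2.97 (log2 difference -3.49, SE 0.51, adjusted p = 6.17e-05). Ifng had 0.50 and 2.89 (log2 difference 2.39, SE 0.69, adjusted p = 0.0214). For Il2 the fitted directions were opposite, and Csf2 differed in the size of its rise. The difference in Ifng was lost without replicate 1 of 24 h (adjusted p = 0.05404) or replicate 3 of 72 h with both additions (0.0609), or without replicate 2 of 72 h in lactic acid (0.0512). The part of time, medium and experiment in these differences was not tested.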

How the data were processed

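Poly(A) RNA of sorted mouse CD4+ T cells was sequenced as stranded libraries with single reads of 65 bases, per the labels' protocols. The authors deposited 1 table of raw counts per library: whole-number read counts per Ensembl gene, not normalized. The submitters' processing notes name STAR 2.7.3a, HTSeq 0.12.4, DESeq2 1.30.1 and GRCm39. Which strand was counted, and the release of the gene models, is not given in the sources used here, and reads of overlapping and antisense genes may be shared. Symbols came from a gene table on another assembly, used for names only: 52081 of 55414 identifiers matched, and the other 3333 kept their identifiers. Entries that name no gene were left out (over the 29 libraries, low-quality reads 13.3% to 16.98%, no feature 5.72% to 11.2%, ambiguous 1.01% to 1.13%).

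All 29 libraries in 10 groups were fitted in 1 quasi-likelihood model (edgeR 4.0.16, R 4.3.3) with TMM scaling, a prior count of 0.125 and the filterByExpr filter (minimum count 10, total 15), which kept 14375 genes. P-values were adjusted by Benjamini-Hochberg over all of these, and genes under 0.05 are called changed. The SE is the log2 fold change divided by the root of the F statistic. CPM use the scaled library size. Depth limits single low counts: a gene with 0 counts was set to a floor of 3 counts over the group, and ratios of few counts have exact 95% intervals, both for counting error only. Differences in the change over time between media were tested as interactions in the same model. After the main fit the steps were also run on counts simulated from it, in which most genes were unchanged, unlike here. That run covered the change over time in lactic acid and its difference from the medium with neither addition. The difference with TGF-beta was not simulated.

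The libraries, lists and genes were chosen with earlier results of these data known. Named were the 12 largest rises and falls whose libraries did not overlap and averaged 5 CPM or more, the 2 largest rises and falls of each of 40 lists, the 5 smallest p-values of each interaction and a panel of 48 genes. That gave 186 genes, and 40 others, with Bub3, Ly6c2 and the cell type markers, were chosen after their values were seen. A few of these genes are not reported here. Alternatives were a block on the replicate number, leaving out each library, fitting only the groups compared, RLE or no scaling, keeping low counts, and DESeq2 1.42.0. Same-numbered libraries of both times had deviations correlated at 0.09, 0.11 and -0.01, and libraries of different numbers at -0.12 to 0.06. The numbers were not taken as pairs, and these values do not settle whether they are. Replicate 1 came from a male at each time, and neither sex nor replicate number was in the main model.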

Additional observations from a re-analysis of the deposited data

Results flagged for a closer look

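The change from 24 h to 72 h in lactic acid differed by an interaction test between medium with and without TGF-beta, with 2068 genes called by edgeR after Benjamini-Hochberg adjustment. Each value that follows is the log2 fold change over time with TGF-beta minus that without it, both in lactic acid. Among the 5 genes with the smallest p were Epas1, which encodes the hypoxia-inducible factor HIF-2 alpha (-5.53), Ltb (2.17), Xcl1 (5.30) and Fam213a (-3.84). None of these 4 lost its call under any alternative run.

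Of the panel of 48 genes, which was chosen with earlier results of these data known, 22 differed, against 14.4% of all genes tested. Among cytokines and effector genes the differences were -4.16 for Il2, 2.39 for Ifng, -3.71 for Il4, -3.54 for Il13, -3.49 for Csf2 and 2.67 for Gzmb. The difference of Il13 was -2.91 without replicate 3 of 72 h in lactic acid. Among genes of receptor signalling and lineage they were -1.27 for Egr2, 1.00 for Nr4a1, -0.97 for Irf4, -2.42 for Bcl6, 3.57 for Foxp3 and 1.59 for Ikzf2. Among naive cell genes they were 1.02 for Ccr7 and 3.47 for Klf2 (2.85 without replicate 3 of 24 h in lactic acid). Among inhibitory receptors they were -1.41 for Pdcd1, -1.64 for Lag3 and -0.87 for Ctla4. Among metabolic and cell cycle genes they were 0.81 for Slc2a1, 0.72 for Hk2, -0.89 for Ldhb, 0.86 for Pdk1 and 1.15 for Mki67.

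Several of these calls rested on single libraries. Those of Lag3, Ctla4 and Pdcd1 were lost without replicate 1 of 72 h in lactic acid (differences of -1.18, -0.58 and -1.07), and that of Pdcd1 also without replicate 3 of 24 h (-1.36). Foxp3 lost its call without replicate 2 of 24 h (3.28) or replicates 1 or 3 of 72 h in lactic acid (3.16 and 3.09), and its difference was 6.71 without replicate 2 of 72 h. Hk2 lost its call without replicate 1 of 24 h in lactic acid (0.63) or, with both additions, replicate 3 of 24 h (0.63) or replicate 1 of 72 h (0.57). Ifng lost it without replicate 2 of 72 h in lactic acid (2.17) or, with both additions, replicate 1 of 24 h (2.26) or replicate 3 of 72 h (2.08). Egr2 lost its call when any of 9 of the 12 libraries was left out (differences of -1.31 to -1.06), all except replicate 2 of 72 h in lactic acid and, with both additions, replicate 1 of either time. Mki67 lost it when any of 8 of the 12 was left out (0.87 to 1.14). The exceptions in lactic acid were replicate 3 of 24 h and replicate 1 of 72 h. With both additions they were replicate 1 of either time. With all libraries kept, Egr2 lost its call with no scaling factor (-1.23) and Mki67 with the compared groups alone (1.14).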

How the results depend on the processing

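The number of genes called between both times in lactic acid (6701) ranged from 5752 to 7462 over the alternatives, and from 5752 to 6368 with 1 library left out. At least 2-fold were 2301 to 3104 genes, 2555 to 2889 with 1 library left out. The difference in time between media with and without lactic acid, 0 in edgeR, called 1 gene with no scaling factor, 18 in DESeq2, 22 with no filter on low counts, and 0 to 40 with 1 library left out. With TGF-beta the 2068 calls ranged from 1512 to 2045 with 1 library left out. Their share of higher calls, 46.8%, was 59.0% with RLE scaling and 59.1% in DESeq2, with 1066 higher and 711 lower with no filter. With 1 library left out that share ranged from 45.0% to 57.1%. With the replicate block, whose numbers were not shown to pair the libraries, these counts were 7462, 2970, 1 and 2811.

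Of 226 named genes, 203 were called, and 172 of these kept their call under every alternative run. None of the 203 changed direction. Most of the 226 were named because they were called, or after their values were seen, so these counts do not describe all genes. Of all 14375 genes tested, 46.6% were called. Among genes without a call, the log2 fold change reversed for Egr2 with no scaling factor (-0.028), no filter (-0.0041) and the replicate block (-0.0084), and with no scaling factor for Hif1a (-0.0084) and Dus4l (-0.0059). With 1 library left out the ranges were -0.14 to 0.20 for Egr2, -0.34 to 0.22 for Pdcd1, -0.48 to 0.24 for Bcl6, -0.018 to 0.13 for Dus4l, -0.24 to 0.12 for Dnajb9, -0.067 to 0.14 for Hif1a and -0.14 to 0.11 for Fasn. The cause was not tested. With 3 libraries a time, a missing call does not show an unchanged level, and genes near 0 counts have folds bounded by depth.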
